A study of Mus musculus with 7 samples.

Results

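DNA methylation after a stable knockdown of Mof was compared with wild type in J1 mouse embryonic stem cells. The comparison took in 3 of the 7 libraries of the series: wild-type library 1, wild-type library 2 and 1 Mof knockdown library. All 21989 cytosine sites that the authors listed for these libraries were used, of 27896 sites listed in the series as a whole. J1 cells were grown on gelatin in medium with serum and leukemia inhibitory factor, and wild-type cells carried no stated modification. The labels name the knockdown only as stable; information on the construct, the clones and the remaining level of Mof is not given in the sources used here, and the tables hold no expression values, so the knockdown itself was not checked. The other 4 libraries, from Uhrf1-/- cells (2 libraries) and from Uhrf1-/- colonies carrying human UHRF1, either wild type or with lysines changed to arginine (3KR), are used only for values set beside those of the knockdown. With 1 knockdown library the condition has no spread of its own, so the results are sizes, and they are given beside the gap between the wild-type libraries.

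MOF, the product of Kat8, is a lysine acetyltransferase that works in the MSL and NSL complexes and is best known for acetylating histone H4. UHRF1 recognises the hemimethylated CpG left by replication and brings in DNMT1, which copies the mark to the new strand. The series title asks how acetylation of UHRF1 by MOF affects the upkeep of methylation. Reduced representation bisulfite sequencing (RRBS) reads short restriction fragments in which unmethylated cytosines have been converted, so each read scores a cytosine as methylated or not. In mammalian cells most CpGs outside CpG islands are methylated, while islands at promoters mostly are not.

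The sites summed to 303235 reads in wild-type library 1, 519116 in library 2 and 299507 in the knockdown, with a median of 10, 16 and 10 reads per site. In that order, 70.1%, 64.7% and 70.9% of the read totals were even numbers, as were 74.7%, 67.3% and 76.0% of the methylated read counts at partly methylated sites. Whether overlapping read pairs were counted more than once was not tested, and intervals from read counts may be too narrow for this reason. The labels do not say whether the wild-type libraries came from separate cultures, so the gap between them may be technical. Of 616 sites that lay inside RefSeq promoter sequences, 614 were CG dinucleotides.

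The sequences below show measured CpGs in promoters at single-base level. They are the stretches of 250 bases upstream of a RefSeq transcript start with at least 5 measured sites and a wild-type mean of at least 20%, which held for 4 of 45 such stretches with at least 5 sites. Each is written 5′ to 3′ on the gene's strand from RefSeq (GRCm38.p6), with the measured CpGs in capitals. Psd4 lies at chr2:24386366-24386615 on the plus strand, Gm7550 at chr12:54391319-54391568 on the minus strand, Qrich2 at chr11:116454348-116454597 on the minus strand and Dcdc2c at chr12:28552400-28552649 on the minus strand.
Psd4 promoter: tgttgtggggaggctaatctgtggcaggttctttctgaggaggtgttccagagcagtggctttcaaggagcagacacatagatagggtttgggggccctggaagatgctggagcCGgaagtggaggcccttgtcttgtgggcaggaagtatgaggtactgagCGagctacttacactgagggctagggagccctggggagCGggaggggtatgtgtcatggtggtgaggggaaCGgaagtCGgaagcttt
Gm7550 promoter: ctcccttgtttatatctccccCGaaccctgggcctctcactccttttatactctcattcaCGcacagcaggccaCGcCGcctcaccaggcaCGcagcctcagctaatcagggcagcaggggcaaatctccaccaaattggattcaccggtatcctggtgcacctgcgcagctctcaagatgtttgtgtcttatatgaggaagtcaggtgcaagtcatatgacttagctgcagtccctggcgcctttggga
Qrich2 promoter: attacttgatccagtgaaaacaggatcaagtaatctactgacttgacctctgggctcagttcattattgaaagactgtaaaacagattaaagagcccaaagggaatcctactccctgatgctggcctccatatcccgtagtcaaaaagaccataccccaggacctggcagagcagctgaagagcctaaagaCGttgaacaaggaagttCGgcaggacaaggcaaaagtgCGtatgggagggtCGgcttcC
Dcdc2c promoter: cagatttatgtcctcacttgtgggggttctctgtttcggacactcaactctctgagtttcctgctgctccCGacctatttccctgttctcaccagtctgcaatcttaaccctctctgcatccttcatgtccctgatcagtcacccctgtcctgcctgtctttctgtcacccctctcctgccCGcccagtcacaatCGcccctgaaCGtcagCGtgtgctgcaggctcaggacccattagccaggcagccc

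In the Psd4 stretch, upstream of a gene for an exchange factor of ARF GTPases, the mean over 5 CpGs was 42.9% and 71.9% in wild-type libraries 1 and 2 and 8.0% in the knockdown. The knockdown had no methylated read at 4 of these CpGs and 40% at the CpG 50 bases before the start, each from 5 or 6 reads. In the Gm7550 stretch the mean over 5 CpGs was 86.7% and 92.4% in wild type and 64.5% in the knockdown. The knockdown value there was 50% to 62.5% at 4 of the CpGs and 100% at the one 158 bases before the start. Wild type was at 83.3% and 100% at that CpG. In the Qrich2 stretch the wild-type means were 39.0% and 69.9% and the knockdown mean was 32.6%, which is below both, although the gap between the wild-type libraries exceeded the distance from the knockdown to the lower of them. Within it the CpG next to the start was 81.0% methylated in the knockdown, against 9.09% to 27.3% at the other 4. The same CpG was also the highest of the 5 in both wild-type libraries, at 54.5% and 89.5%. In the Dcdc2c stretch, which holds 5 measured CpGs, the values of 26.5% and 22.4% in wild type and 20% in the knockdown lay close together. Levels thus differed between neighbouring CpGs of a single promoter as well as between promoters, in wild type as in the knockdown.

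Over all sites, methylation averaged 49.8% in wild-type library 1, 51.7% in library 2 and 42.0% in the knockdown. The knockdown lay 8.74 points below the wild-type mean of 50.7% ± 1.40 (SD, n = 2), while the wild-type libraries were 1.97 points apart. The knockdown therefore kept 82.8% of the wild-type level. The median site was at 57.1% and 63.6% in wild type and at 36.4% in the knockdown. Sites over 80% methylated made up 32.3% and 35.2% of the wild-type sites and 22.4% of the knockdown sites. Sites under 20% made up 35.5%, 33.6% and 39.9%, and sites between these limits 32.2%, 31.2% and 37.7%. The knockdown stood outside both wild-type libraries in each of these quantities. Weighting by reads changed the picture: pooled over all reads, the levels were 40.4%, 50.5% and 42.5%. The knockdown thus lay between the wild-type libraries, 2.92 points below their mean. Without the ribosomal RNA repeat on chromosome 17 and the mitochondrial sites, the pooled levels were 42.9%, 53.9% and 43.3%. These levels still hold 2 very deep promoters on chromosome 2, described below, whose part in the pooled order was not tested. Among the 1268 sites with at least 20 reads in all 3 libraries the unweighted levels were 34.4%, 35.7% and 29.5%, a difference of -5.57 points.

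The lower level was seen in gene bodies, intergenic DNA and promoters. Exon sites averaged 57.3% and 59.4% in wild type and 47.6% in the knockdown, a difference of -10.8 points. Intron sites averaged 60.5%, 62.8% and 51.0% (-10.6 points), and intergenic sites 61.0%, 63.4% and 52.3% (-9.92 points). Promoter sites, which the authors' table places within 1 kb of a transcript start, averaged 25.2%, 26.4% and 20.9% (-4.91 points). Relative to wild type the 4 classes were close: the knockdown kept 81.5% of the exon level, 82.7% of the intron level, 84.1% of the intergenic level and 80.9% of the promoter level. For promoter sites the order rested on the weighting. Pooled over reads, they stood at 18.3%, 31.9% and 26.8%, with the knockdown above the wild-type mean by 1.73 points. Without the ribosomal RNA repeat on chromosome 17 and the mitochondrial sites the pooled values were 21.2%, 38.4% and 27.8%, again with the knockdown between the wild-type libraries. These values still hold 2 very deep promoters on chromosome 2. The one at 98662265-98662795 had 1191, 28669 and 3536 reads, and the one at 98666682-98667255 had 1233, 5496 and 10750. All promoter sites together had 123737, 190282 and 104661 reads. The part of these 2 promoters in the pooled order was not tested.

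Sites outside CpG islands and their shores averaged 63.0% and 65.2% in wild type and 53.2% in the knockdown, a difference of -10.9 points. Shores, the flanks of islands, averaged 21.4%, 23.4% and 18.1% (-4.27 points). CpG islands were nearly unmethylated, at 4.65%, 4.86% and 3.57% (-1.19 points). Within the islands, the 1453 promoter sites were at 2.39%, 2.38% and 2.19%. The 128 island sites in exons were at 19.2%, 20.5% and 11.1%, so the knockdown kept 55.9% of wild type there. Introns held 119 island sites, at 16.1%, 17% and 11.2%. Outside islands and shores, the differences at 7 ranges of distance from a transcript start ran from -11.8 points within 200 bp (670 sites) to -9.63 at 500 to 1000 bp (941 sites). They were not in order of distance: -11.0 points at 20 to 50 kb (2275 sites) was followed by -9.87 beyond (1287 sites).

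**Figure D1:**
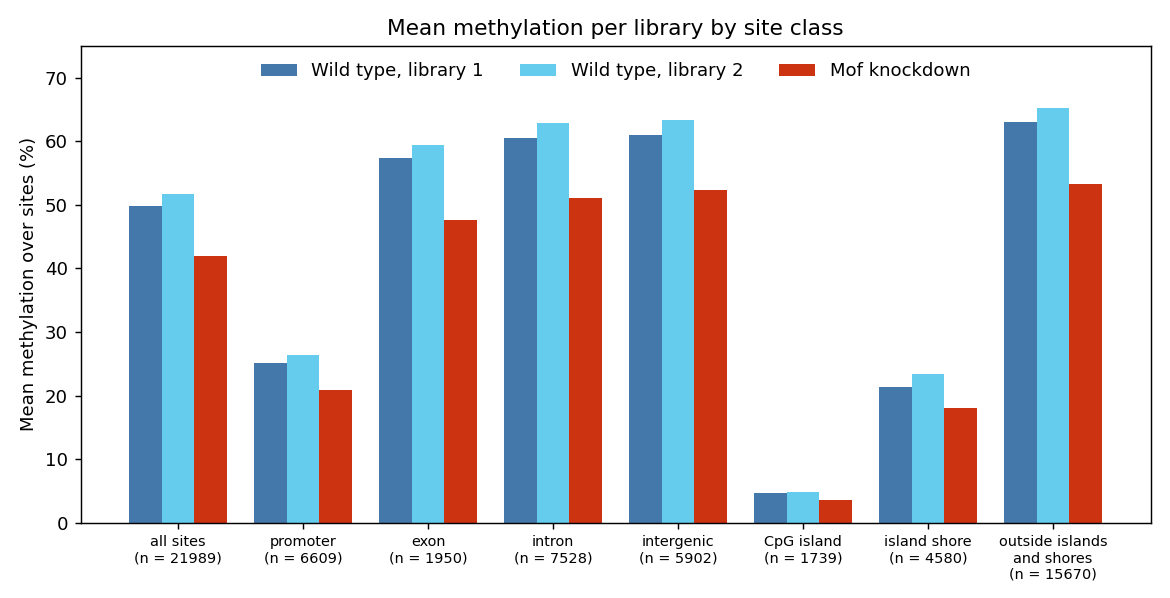
Mean methylation in percent over the sites of each class (n below each label) in the 3 libraries, 1 bar per library, with no error bar because each bar is 1 library. The knockdown bar is the lowest of the 3 in every class shown, from 3.57% in CpG islands to 53.2% outside islands and shores.

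The knockdown was below both wild-type libraries on all 19 autosomes. The differences ran from -10.2 to -3.76 points, and the largest gap between the wild-type libraries on an autosome was 3.23 points. The smallest difference was that of chromosome 17, which was at 39.4%, 41.0% and 36.4%. Without the ribosomal RNA repeat described below, chromosome 17 was at 44.3%, 47.1% and 37.4%, a difference of -8.26 points. On the X chromosome, with 142 sites, the levels were 43.9%, 47.9% and 40.5%.

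To see which levels of methylation were affected, sites were grouped by their level in one wild-type library and the knockdown was compared with the other. Grouped on library 1, sites at over 40 to 60% averaged 67.0% in library 2 and 50.2% in the knockdown, a difference of -16.9 points. At sites at 100% in library 1, library 2 averaged 86.0% and the knockdown 75.1%, a difference of -10.9 points. The reverse grouping gave -13.9 points at over 40 to 60% and -9.24 points at 100%. In points, sites over 20% and under 100% were further from wild type than sites at 100%. Sites over 0 to 20% were nearer, at -4.92 points grouped on library 1 and -4.02 grouped on library 2. Partly methylated sites kept a smaller share than fully methylated ones. The knockdown kept 69.4% and 69.9% of the other library's level at sites over 20 to 40%, against 87.3% and 89.1% at sites at 100%. Sites without a methylated read in library 2 averaged 3.52% in library 1 and 3.29% in the knockdown, and those without one in library 1 averaged 6.93% in library 2 and 4.51% in the knockdown. The share of fully methylated sites that dropped under 20% was small: of the 5589 sites at 100% in library 1, 3.65% were under 20% in the knockdown and 0.590% in library 2.

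**Figure D2:**
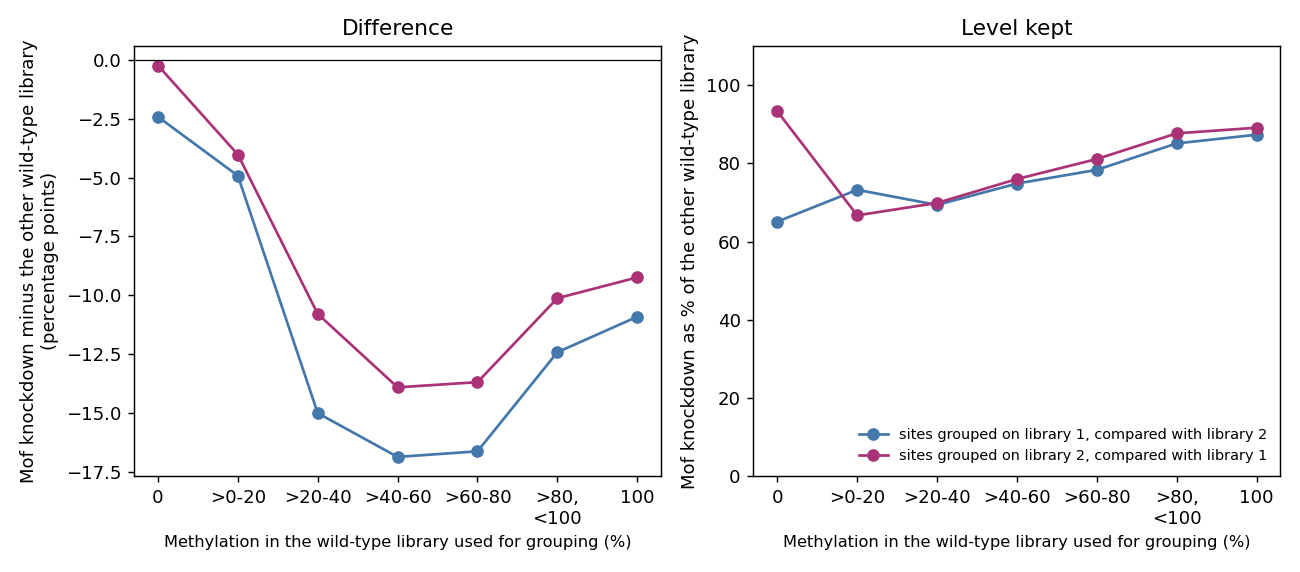
Difference from wild type in percentage points (left) and knockdown level as a percent of wild type (right), for sites grouped by their level in one wild-type library and compared with the other, which did not choose them. Differences are furthest from 0 at sites over 40 to 60%, at -16.9 and -13.9 points, and the share kept is 87.3% and 89.1% at sites at 100%.

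Single sites were compared where all 3 libraries had at least 10 reads, which left 6679 sites. Here a fall or a rise is a difference in size from wild type, with no test behind it. The knockdown was at least 20 points below the wild-type mean at 1415 sites (21.2%) and at least 20 points above it at 291 (4.36%). Against library 1 alone the counts were 1465 lower and 496 higher, and against library 2 alone 1592 lower and 331 higher. Library 2 was at least 20 points below library 1 at 539 sites and above it at 863. With each library thinned to 10 reads per site, the knockdown was lower at 1897 and higher at 807 sites against library 1, and lower at 2017 and higher at 625 against library 2. Library 2 was then lower than library 1 at 959 sites and higher at 1294. The share of sites at least 20 points lower was 27.6% outside islands and shores, 13.4% in shores and 1.40% in CpG islands. By annotation it was 28.3% in exons, 26.6% in introns, 25.9% in intergenic DNA and 12.2% in promoters. Falls outnumbered rises in each of these classes but CpG islands, which had 10 sites of each kind.

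Fisher's exact test of the reads, two-sided and with Benjamini-Hochberg adjustment, compares libraries and not conditions. At least 20 points and an adjusted p under 0.05 were reached by 607 lower and 85 higher sites for the knockdown against the pooled wild-type reads. Against library 1 alone it gave 239 lower and 67 higher, against library 2 alone 541 and 67, and for library 2 against library 1 28 lower and 99 higher. With all read counts halved, because so many totals are even, 37 lower and 29 higher sites passed. The authors' deposited table gives 2694 lower and 436 higher sites among 21989 with q-values under 0.05 and differences of 20 points or more, and 62 of those higher sites lie in the ribosomal RNA repeat. Tests that borrow the spread of the wild-type pair passed no site after adjustment: edgeR's quasi-likelihood test had 0 lower and 0 higher sites (146 and 64 at an unadjusted p under 0.05) and limma 0 and 0 (705 and 184).

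Neighbouring sites were then joined into regions, runs of at least 3 sites of at least 10 reads with no more than 100 bp between neighbours, which gave 964 regions. The knockdown was at least 20 points lower in 163 regions (16.9%) and at least 20 points higher in 6 (0.622%). Library 2 was that far below library 1 in 22 regions and above it in 55. The knockdown lay below both wild-type libraries in 510 regions, above both in 120 and between them or level with one in 334. Against library 1 alone, 19 regions were at least 20 points higher in the knockdown, and against library 2 alone 5. Of the 163 regions between 85% and 100% in library 1, the knockdown was below library 2 in 122 and above it in 41, and its mean was 79.2% against 88.4%. Of 128 regions between 20% and 50% in library 1 it was below library 2 in 111, with means of 27.8% and 43.3%. The sites of a region often share the same fragments, so they are not independent measurements.

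**Figure D3:**
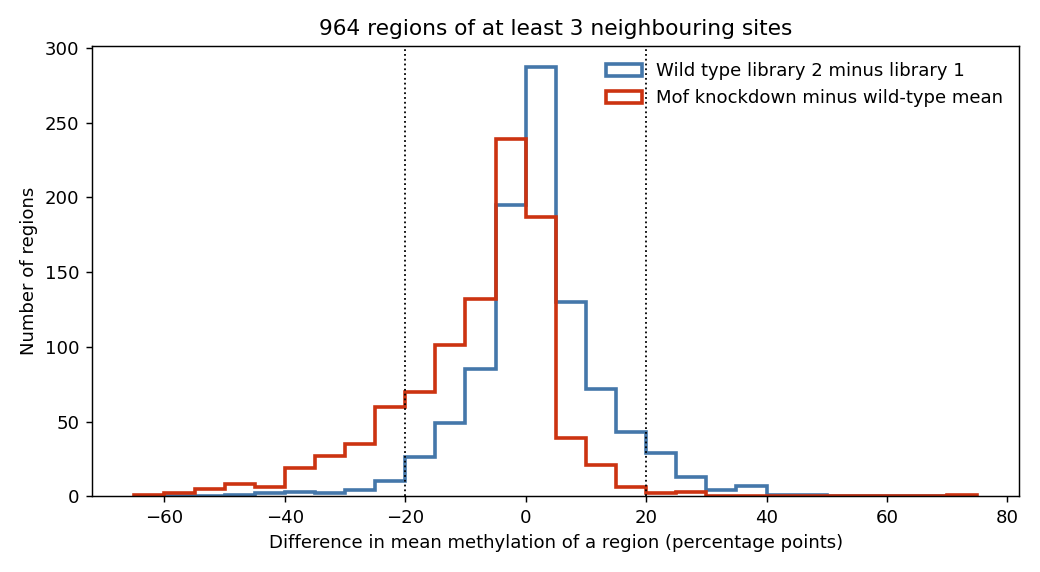
Number of regions by difference in mean methylation, in bins of 5 percentage points, for the knockdown minus the wild-type mean (red) and for wild-type library 2 minus library 1 (blue). Dotted lines mark 20 points: 163 regions lie at or below the lower line for the knockdown and 22 for the wild-type libraries.

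The regions outside promoters named here lay outside both wild-type libraries by more than the gap between them, and are the 10 with the largest fall. Their differences ran from -59.3 to -46.1 points, and all 10 were outside islands and shores. Of their 42 sites, 39 were below both wild-type libraries, which the rule that chose the regions favours. Over all 6679 sites with at least 10 reads in each library, 2419 (36.2%) were below both. The greatest fall was in an exon of Yeats4, which encodes a histone acetyl-lysine reader (chr10:117215650-117215738, 3 sites). It was at 74.0% and 57.9% in wild type and 6.67% in the knockdown, from 2 of 30 reads with a 95% Wilson interval of 1.85% to 21.3%. In an exon of Pabpc1l, for a poly(A)-binding protein, the levels were 80%, 100% and 33.3% over 4 sites. One of those sites was at 100% in the knockdown and the other 3 were at 16.7% or less. An intron of Tcf7l1, a transcription factor of the Wnt pathway that restrains the pluripotency network, was at 70.8%, 77.9% and 21.8% over 4 sites and 133 knockdown reads. An intron of Tnfrsf9, a receptor of the tumour necrosis factor family, was at 69.3%, 94.2% and 29.2%. The region with the most knockdown reads in sum, 174, was an intergenic run of 11 sites at chr4:44403710-44403820, at 88.6%, 80.4% and 35.5%, where each site was below both wild-type libraries and the knockdown values ran from 12.5% to 50%. Also lower were an exon of Tlcd3a (83.3%, 83.7% and 30%) and intergenic regions nearest to Pacsin2 (60.6%, 70.4% and 11.1%), to Gal, the galanin gene (100%, 91.4% and 47.0%), and to Gm32486 (83.8%, 83.7% and 37.6%). The libraries of wild type and knockdown do not overlap in any of the 10, which the rule that chose them requires.

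The largest rises outside promoters were smaller. An intron of Mylk, the myosin light chain kinase gene, was at 13.3%, 25.4% and 44.4% over 3 sites, a difference of 25.1 points. An intergenic region nearest to Tacc1, a centrosomal protein gene, was at 46.7%, 53.5% and 73.2%. The 3 that followed were an intergenic region at chr4:5045862-5045951 (73.3%, 75% and 93.9%), an intron of Fstl4 (47.6%, 52.7% and 67.2%) and an intron of Tbccd1 (72.8%, 77.8% and 92.2%). Each of the 5 rested on 3 sites, of which 2 were above both wild-type libraries.

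Promoters were summarised where at least 3 sites had at least 10 reads, which held for 368. The knockdown was at least 20 points lower in 36 (9.78%) and at least 20 points higher in 2 (0.543%), while library 2 was that far below library 1 in 4 and above it in 6. The median promoter had a wild-type level of 3.02%, so most had little methylation to lose. The 10 promoters with the largest fall, chosen by the same rule as the regions, differed by -60.9 to -33.0 points. Of these, 7 lay outside islands and shores, 3 in shores and 0 in islands. Below both wild-type libraries were 34 of their 43 sites, which the rule that chose them favours. Over all 6679 sites the share was 36.2%.

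By the first listed site, only Gm44140 of these promoters was matched to a RefSeq start within 500 bp on the same strand. The others are named for a gene that holds the listed transcript start, which need not be its main start. For Slc20a2, Scrib, Kmt2b, Krt19 and Usp22 the strand was not compared. Slc20a2, a phosphate transporter gene, had the greatest fall (chr8:22506629-22506772, 4 sites). It was at 81.3% and 57.2% in wild type and 8.33% in the knockdown, from 4 of 47 reads with an interval of 3.36% to 19.9%. Each of the 4 sites was below both wild-type libraries, with no methylated read at 2 of them. Scrib, a polarity scaffold gene, was at 43.0%, 53.0% and 9.52%, and Dbn1, for the actin-binding protein drebrin, was at 47.6%, 37.6% and 7.33%. Kmt2b, a histone H3 lysine 4 methyltransferase gene, was at 66.2%, 86.2% and 40.4%, with each of its 5 sites below both wild-type libraries. The listed sites of Kmt2b span 30574263 to 30584476 on chromosome 7 and those of Dbn1 55483557 to 55488470 on chromosome 13, since the table annotates several transcript starts within each gene. Krt19, a keratin gene of epithelia, was at 82.5%, 89.1% and 51.9%, and all 3 of its sites were lower. Usp22, which encodes a deubiquitinase of the SAGA complex, was at 82.8%, 72.1% and 44.4%. Blcap, whose measured sites also lie in the span of the imprinted gene Nnat, was at 44.5%, 59.7% and 18.8%. Also lower were the promoter of Gm44140, inside Atf7ip, at 45.7%, 66.2% and 22.4%, and a transcript start inside Arhgap27 at 51.4%, 39.0% and 12.0%. Wild-type libraries differed by 20 points or more in Slc20a2, Kmt2b and Gm44140.

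**Figure D4:**
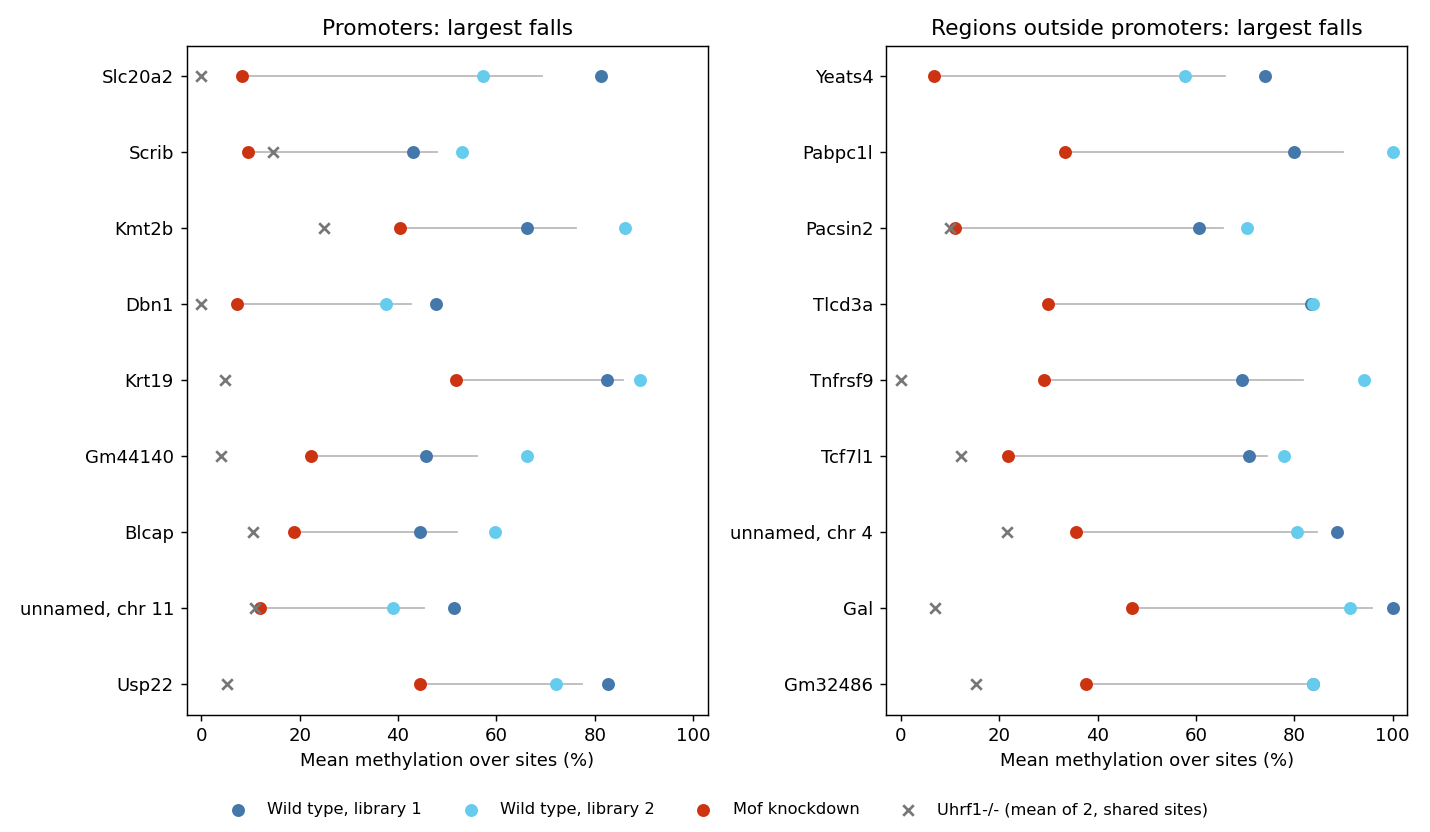
Mean methylation in percent of the named promoters (left) and regions outside promoters (right) with the largest falls, 9 of 10 each, 1 point per library, with the grey line joining the knockdown to the wild-type mean and crosses showing Uhrf1-/- over the sites listed in both tables. The knockdown points lie left of both wild-type points in every row, which the choice of rows requires, and Slc20a2 is at 8.33%.

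Rises at promoters were fewer than falls and mostly small. Among the 368 promoters the knockdown lay above both wild-type libraries in 50 and below both in 159. By more than the gap between those libraries it was above in 30 and below in 99. The promoters named here are among the largest rises of the 30. Gng8, a G protein gamma subunit gene, was at 3.64%, 4.45% and 20%, and 4 of its 5 sites were above both wild-type libraries. Maneal, an endomannosidase-like gene, was at 1.54%, 3.93% and 17.3%, with 5 of 5 sites above. Its relative Manea was at 0%, 0% and 7.41%, which came from 1 site with 4 methylated reads of 18. Gm45575 was at 76.2%, 82.4% and 88.9%. Like Gng8, Acbd4 and Pou4f1, it is named for a listed start inside the gene, which need not be its main start. Acbd4 (0%, 0% and 5.13%), Pou4f1 (3.03%, 1.30% and 7.19%) and Pitx3 (0%, 0% and 4.55%), the last pair of them genes for neuronal transcription factors, stayed under 8% in all libraries. The 2 promoters at least 20 points higher belonged to the ribosomal RNA repeat and to the mitochondrial genome, and without these loci 0 of 360 promoters were that much higher.

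The gene lists were read from all 1670 promoters with a listed site, however many sites they had. Of these, 311 (18.6%) were at least 20 points lower and 48 (2.87%) at least 20 points higher, and the median difference was -1.27 points. The knockdown lay below both wild-type libraries in 629 of the 1670 and above both in 236. Coverage of the lists was thin. Some listed starts lie inside a gene and need not be its main start, as for Msl1, Gnas, H19 and Pax6. Of 12 genes of the MOF complexes, 2 were measured and 1 was at least 20 points lower, and Kat8 itself was not among them. Msl1, a scaffold of the MSL complex, was at 85.7%, 93.8% and 72.2% over 2 sites. An internal transcript start of Kansl1, a scaffold of the NSL complex, was at 25% and 33.3% over 3 sites, with 0 of 18 knockdown reads methylated. Pooled over the 3 sites this allows a level of up to 16.7%. Only 1 of the 3 sites was below both wild-type libraries, and the limit for that site alone is wider. Of 20 genes of the methylation machinery only Usp7, a deubiquitinase that binds UHRF1 and DNMT1, was measured, at 85%, 72.0% and 70%.

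Of 30 germline genes that promoter methylation is known to silence in other cells, 5 were measured, 1 was at least 20 points lower and 3 lay below both wild-type libraries. The median difference of the 5 was -12.4 points. Among the 529 promoters over 50% in wild-type library 1 the median difference from library 2 was -12.5 points, and 198 were at least 20 points lower. These medians are not like for like. The germline median is taken from the wild-type mean and includes Hormad2, Brdt and Tdrd1, which were under 50% in library 1. Sycp1, a component of the synaptonemal complex, was at 65.7%, 67.4% and 29.2% over 4 sites. Hormad2, a protein of unsynapsed meiotic chromosomes, was at 32.9%, 33.8% and 16.7% over 9 sites. Meioc, which sustains meiotic prophase, was at 62.6%, 62.7% and 50.3% over 9 sites, of which 5 were below both wild-type libraries and 2 above both. In these 3 genes the wild-type libraries differed by less than 2 points. Brdt (0%, 24.4% and 0%) did not fall outside wild type, and Tdrd1 had no methylated read in any library.

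Of 30 imprinted genes, whose alleles differ in methylation by parent of origin, 4 were measured, and 1 was at least 20 points lower. H19, a maternally expressed noncoding RNA, was at 70.8%, 55.6% and 36.1% over 4 sites. Meg3, also maternally expressed, was at 65.9%, 65.7% and 50% over 9 sites, of which 4 were below both wild-type libraries and 3 above both. Gnas was at 47.6%, 60% and 55.6%, with the knockdown between the wild-type libraries, and Trappc9 at 4.06%, 5.21% and 0% of 178 reads, which allows up to 1.69%. Alleles cannot be told apart in these tables.

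Promoters of pluripotency and lineage genes were mostly unmethylated in every library. Sox2 (2.50%, 0% and 0%), Esrrb and Nr5a2 (0% in each) were the 3 of 21 pluripotency genes measured. Of 27 lineage transcription factors 7 were measured. Pax6 was the methylated one, at 80.8%, 73.9% and 64.2% over 7 sites, Lhx2 and Olig2 stayed under 3%, and Pax7, Neurog1 and Gata4 had no methylated read. Among the markers of other cells the cultures could hold, the fibroblast gene Thy1 was at 71.4%, 87.5% and 14.3% at 1 site, and 0 of 12 trophoblast, 0 of 12 two-cell stage and 0 of 12 housekeeping genes were measured. Methylation of so few promoters does not show which cell types were present.

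The ribosomal RNA repeat went the other way. Sites listed in Rn18s-rs5 and AY036118 on chromosome 17 belong to a sequence present in many copies, so reads cannot be assigned to one place, and the locus is uncertain for this reason. A block of 74 sites at chr17:39846638-39847211 averaged 9.68% in wild-type library 1, 0.423% in library 2 and 57.5% in the knockdown. The knockdown was above both wild-type libraries at 74 of 74 sites, and 15 sites on the minus strand reached 100%. The neighbouring block at chr17:39848565-39848710, with 36 sites, was at 2.62%, 0.981% and 0.565%, so the higher level did not extend over the whole locus. Depth differed along the block, which was divided after its values were seen. At its first 38 sites, with 44 to 96 reads in library 1, 48 to 144 in library 2 and 7 to 33 in the knockdown, the levels were 1.95%, 0.385% and 27.3%. At the other 36 sites, with only 5 to 16, 5 to 12 and 11 to 37 reads, they were 17.8%, 0.463% and 89.3%. Library 1 was at 20% to 50% at the 15 sites where the knockdown reached 100%. The part of depth in the result was not tested. A block of 7 sites between these was at 25.5%, 0% and 9.80%, which shows that wild-type library 1 also departed from library 2 in this repeat.

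**Figure D5:**
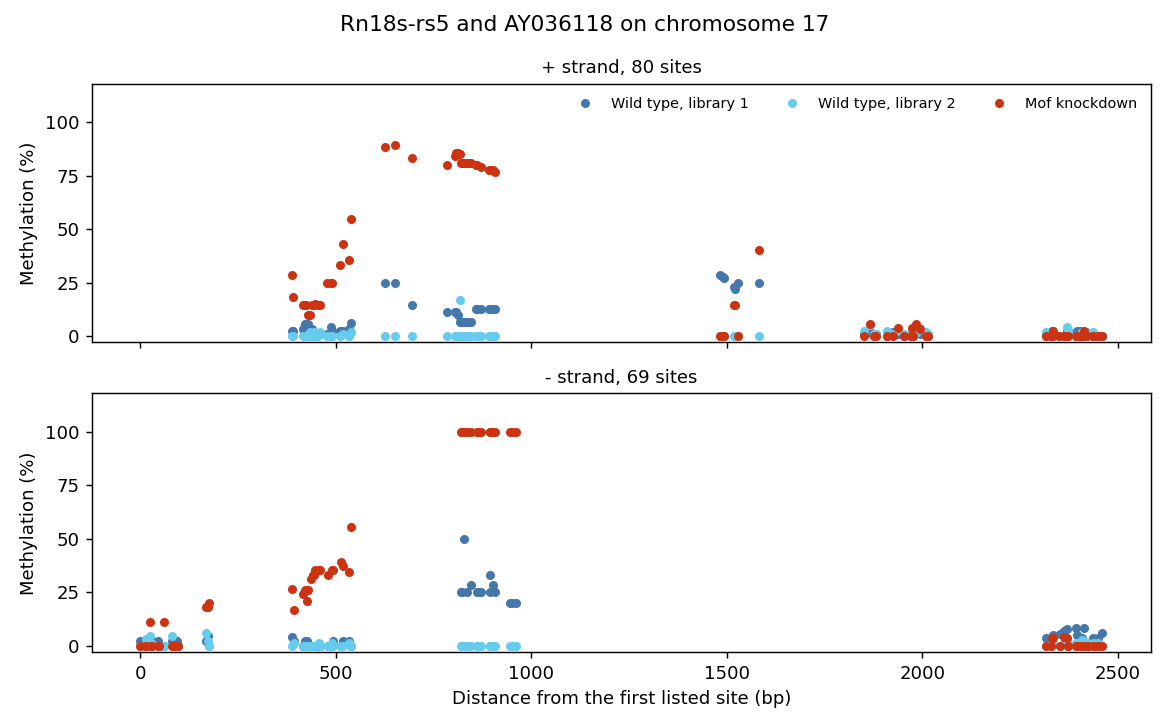
Methylation in percent at each listed site of the ribosomal RNA repeat against distance in bp from the first listed site, by strand (80 plus, 69 minus), 1 point per site and library. Knockdown points reach 89.5% on the plus strand and 100% on the minus strand in a block where wild-type library 2 is at or near 0 and library 1 runs up to 50%, and lie near 0 at the far right.

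At the 12282 sites listed in both tables of the series the same wild-type reads were used, so the comparisons below share their controls and are given side by side only. Wild type averaged 48.2% and 50.1%, the knockdown 40.4%, and Uhrf1-/- 9.35% and 9.87%. The rescue with wild-type UHRF1 was at 45.3% and the 3KR rescue at 15.2%. As a share of wild type, the knockdown was at 82.2%, Uhrf1-/- at 19.6%, the 3KR rescue at 31.0% and the wild-type rescue at 92.1%. The knockdown level therefore lay between those of the 3KR and the wild-type rescue and nearer to the latter. The difference from wild type at the 9707 sites listed only for the knockdown was -8.76 points, against -8.73 at the shared sites.

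The order of the libraries differed with the site class. In intergenic DNA the knockdown was at 52.3% and the wild-type rescue at 56.0%, against 61.1% and 63.1% in wild type. In shores the knockdown was at 16.3%, while the wild-type rescue, at 22.1%, was just above wild type (20.1% and 21.8%). Sites over 80% in wild-type library 1 were also grouped by the level they kept in Uhrf1-/-. Where under 5% remained (875 sites), the knockdown was 12.5 points below wild-type library 2. Where 30% or more remained (704 sites) it was 8.22 points below, and groups in between were 12.3 and 11.4 points below. Library 2 itself ran from 82.4% to 89.1% across these groups, so they differ in wild type as well.

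At the 10 promoters with the largest falls, each with at least 1 shared site, Uhrf1-/- ran from 0% to 24.9%, and it was below the knockdown in 9 of them. The same order held over all 3930 shared promoter sites, with Uhrf1-/- at 4.64% and the knockdown at 19.4%, so it is not particular to these promoters. Scrib, Dbn1 and Blcap had 1 shared site each, and at those of Scrib and Dbn1 wild type averaged only 7.67% and 3.33%. Krt19, over 3 shared sites, was at 85.8% in wild type, 51.9% in the knockdown, 4.76% in Uhrf1-/-, 44.4% in the 3KR rescue and 74.7% in the wild-type rescue. For Sycp1, over 4 shared sites, the values were 66.5%, 29.2%, 1.67%, 0% and 38.8%. In the intergenic run of 11 sites on chromosome 4 they were 84.5%, 35.5%, 21.7%, 1.91% and 73.7%.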

How the data were processed

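RRBS of genomic DNA from J1 cells was analysed from the table that lists the Mof knockdown with both wild-type libraries, and the series' second table supplied values at shared sites. The submitters' processing notes name BSMAP 2.73, Trim Galore, cutadapt and the build mm10; information on their settings and the methylation caller is not given in the sources used here. Per the file headers, the deposited columns are counts of total, methylated and unmethylated reads per site and strand, the methylated fraction per library, a p-value and q-value, and a difference in percentage points (a score). Every deposited site had at least 5 reads per library, and fractions were recomputed from the counts. Groups came from the sample titles.

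Levels are unweighted means of site percentages; a site, promoter or region was called at 20 points. Wilson intervals (95%) cover counting error only. For 1 library against 2, the smallest two-sided p of an exact permutation test is 0.333, so none was run. Fisher's exact test was run on 6679 sites, in Python 3.11.15 with numpy 2.4.6, pandas 2.3.3 and scipy 1.17.1. Plots used matplotlib 3.10.9. For edgeR 4.0.16 and limma 3.58.1 (R 4.3.3), only the 5164 of these sites with both methylated and unmethylated reads over the 3 libraries were tested and adjusted. On simulated data with the reads of these 6679 sites and 200 lowered sites, Fisher's test recovered 4, 9, 17 and 35 of 50 at 20, 30, 40 and 50 points. The data simulated for it held counting error only, with no spread between libraries, unlike the real libraries. In a separate simulation that added such a spread, edgeR and limma recovered 0 of 200. The recoveries of the tests are therefore not comparable. Named promoters and regions had at least 3 sites of at least 10 reads, lay outside both wild-type libraries by more than their gap, and were the 10 largest falls and rises (5 rises for regions); every measured list member was also named. Genes were matched by a RefSeq start (GRCm38.p6) within 500 bp on the same strand, or else a start inside the gene; 18291 of 21989 sites matched. The members and gene lists were chosen with earlier results of these data known. Trophoblast, two-cell and housekeeping lists had no measured promoter. A few items that these rules select are not reported here.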

Additional observations from a re-analysis of the deposited data

How the results depend on the processing

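No paired analysis was possible because the knockdown has 1 library and shares fewer than 2 replicate numbers with wild type. With either wild-type library left out, the mean difference ranged from -9.73 to -7.75 points, sites higher from 331 to 496, Fisher sites lower from 239 to 541, and regions higher from 5 to 19; in these 3 counts the change came from leaving out library 2. Weighting by reads gave -2.92 points over all sites, 1.73 for promoter sites (reversed), -8.76 for introns, -5.32 for intergenic sites and -5.40 outside islands and shores. Weighting by reads without the ribosomal RNA repeat and mitochondrial sites, an alternative chosen after seeing the data, gave -5.10 over all sites and -1.93 for promoters. A minimum of 10 reads gave -3.97 for promoter sites and -0.92 for CpG islands, and of 20 reads -5.57 over all sites. The cause was not tested. Sites lower numbered 5645 at 5 reads, 187 at 20 reads, 856 at 30 points and 0 by edgeR and by limma. Sites higher numbered 1664 at 5 reads, 39 at 20 reads, 502 after thinning, 169 when 20 points outside both wild-type libraries, 124 at 30 points and 0 by edgeR and by limma. Counts at unadjusted p for these tools stand in the report. Fisher's test gave 1406 lower and 157 higher at 5 reads, 133 and 32 at 20 reads, and 37 and 29 with counts halved (chosen after seeing the data). Promoters lower numbered 141 at 5 reads and 15 with at least 5 sites; promoters higher numbered 12, 1 and, without the repeat and mitochondrial sites, 0. Regions lower numbered 712 at 5 reads and 43 with at least 5 sites; regions higher numbered 60 and 3, 3 when outside both libraries, and 3 without the repeat and mitochondrial sites. Weighted by reads, 29 of the 35 named promoters and regions stayed within the SD of the wild-type pair, 6 moved and 0 reversed. Of 98 alternatives for the other results, 41 moved and 1 reversed; leaving out a wild-type library cannot move a mean difference by the SD of the pair.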

Other observations

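Mitochondrial DNA, which holds 43 listed sites and is regarded as largely unmethylated, was also higher in the knockdown at part of its sites. Pooled over reads, it was at 0.825% of 7396 reads in wild-type library 1, 0.626% of 20276 in library 2 and 3.25% of 2618 in the knockdown, and 20 of the 43 sites were above both wild-type libraries. The first 5 listed sites, between positions 1636 and 1872, were at 1.01%, 0.269% and 11.5%, and the next 5, between 3334 and 3456, at 0%, 0% and 24.6%, the last from 16 of 65 reads; these groups were chosen after their values were seen. The 5 sites with at least 100 knockdown reads, between 12268 and 12396, were at 0.749%, 0.570% and 0.905%. Reads without conversion and methylated reads cannot be told apart here.

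Both strands of a CpG were listed for 110 pairs outside the ribosomal RNA repeat and the mitochondrial genome. The mean absolute difference between the strands was 23.4 points in wild-type library 1, 21.4 in library 2 and 20.4 in the knockdown, at mean levels of 48.9%, 46.4% and 40.7%. The strands of these pairs come from separate fragments, so a difference between them is not a count of hemimethylated sites.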
